A study of Mus musculus with 14 samples.

Results

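Tissue macrophages of the mouse ovary were followed through 10 genes that mark resident macrophages: Cd68, Adgre1, Csf1r, Mrc1, Cd163, Lyz2, Cx3cr1, Cd14, Mertk and Fcgr1. They were chosen by name, as the rows of the deposited expression table that carry these symbols, and all 10 were found among its 56748 genes. All 10 also passed the filter on low values, which asked for an FPKM of at least 0.5 in at least 3 libraries and left 18006 genes. FPKM counts the fragments of a gene per kilobase of its length and relative to depth, so levels can be compared between genes. Ovaries were taken from female C57BL/6J mice of wild-type genotype. There were 4 libraries of mice given dextran sulfate sodium (DSS) and 3 of control mice at day 7, and 4 DSS and 3 control libraries at day 89. DSS is a polymer that injures the lining of the colon and is used to model colitis. The series text places day 7 at the end of the DSS model and day 89 after a rest. The labels give neither the ages of the mice nor whether each library is a separate animal, so the p-values rest on the spread between libraries and part of it may be technical.

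Macrophages live in nearly all tissues, where they engulf dying cells, sense microbial products and present antigen. In the ovary they are found in the stroma, around follicles and in the corpus luteum, and they take part in the clearing of regressing follicles and luteal tissue. Their survival depends on signalling through the receptor that Csf1r encodes, whose ligands are the products of Csf1 and Il34, and their identity depends on the transcription factor PU.1, the product of Spi1. The other genes cover surface markers, scavenger and clearance receptors, sensing receptors and the lysosome. Several of them are shared with other cells: Lyz2 with neutrophils and monocytes, Cd14 and Fcgr1 with monocytes, Mrc1 with lymphatic endothelium and Mertk with other phagocytic cells.

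PU.1 binds purine-rich sites with the core GAGGAA, and the start-site regions of these genes were searched for it. RefSeq promoter windows on build GRCm38.p6, each 300 bases long and reaching from upstream of a gene's start to just inside it, were available for 7 of the 10 genes. Both strands were searched, so TTCCTC counts as a match to GAGGAA. The core was found in 3 of 7 windows, those of Cd68, Mrc1 and Fcgr1, against 27.8% of all 25655 windows in the table. The longer form GAGGAAG, or CTTCCTC on the other strand, which contains the core, was found in 2 of 7, those of Mrc1 and Fcgr1, against 13.7% of all windows. A match is a description of letters and not a binding site. The windows below belong to Cd68, which had the largest fold change of the 10 genes in each comparison of groups, to Lyz2, which had the highest level, and to both genes with the longer form. They lie at chr11:69666121-69666420 on the minus strand (Cd68), chr10:117282223-117282522 on the minus strand (Lyz2), chr2:14229164-14229463 on the plus strand (Mrc1) and chr3:96293920-96294219 on the minus strand (Fcgr1). Each is written 5′ to 3′ along its gene, and capitals mark the core on either strand.
Cd68: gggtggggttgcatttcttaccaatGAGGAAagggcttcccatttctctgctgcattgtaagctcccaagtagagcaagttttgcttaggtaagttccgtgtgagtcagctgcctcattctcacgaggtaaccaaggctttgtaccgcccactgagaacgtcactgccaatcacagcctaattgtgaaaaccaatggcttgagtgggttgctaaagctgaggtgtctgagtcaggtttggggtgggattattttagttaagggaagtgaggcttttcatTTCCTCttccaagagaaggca
Lyz2: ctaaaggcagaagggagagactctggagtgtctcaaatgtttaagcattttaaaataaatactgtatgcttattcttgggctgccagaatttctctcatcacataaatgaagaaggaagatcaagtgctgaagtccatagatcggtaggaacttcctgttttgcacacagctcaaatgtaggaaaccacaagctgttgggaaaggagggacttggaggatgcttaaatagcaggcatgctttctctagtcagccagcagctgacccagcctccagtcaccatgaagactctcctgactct
Mrc1: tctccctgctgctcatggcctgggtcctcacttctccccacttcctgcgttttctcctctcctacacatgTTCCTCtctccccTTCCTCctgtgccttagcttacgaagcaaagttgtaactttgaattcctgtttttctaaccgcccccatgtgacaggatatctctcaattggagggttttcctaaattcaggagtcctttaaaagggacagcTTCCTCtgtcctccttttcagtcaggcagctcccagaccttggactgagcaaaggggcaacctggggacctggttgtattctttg
Fcgr1: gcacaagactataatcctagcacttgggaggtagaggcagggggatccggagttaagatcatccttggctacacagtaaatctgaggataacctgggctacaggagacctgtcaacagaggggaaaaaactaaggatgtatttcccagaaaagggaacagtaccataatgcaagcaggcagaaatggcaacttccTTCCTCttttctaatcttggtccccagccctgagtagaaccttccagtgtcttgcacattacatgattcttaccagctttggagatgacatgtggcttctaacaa
In the Cd68 window the core began 225 bases upstream of the start on the gene's own strand and again 29 bases inside the gene on the other strand. In the Mrc1 window it lay at 180, 167 and 35 bases upstream, and in the Fcgr1 window at 55 bases upstream, all on the other strand. The Lyz2 window held no match.

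Depth was similar across libraries: the reads recovered from the deposited values ran from 15.3 to 18.5 in units of 1000000 per library. Csf1r rested on 451 to 1558 reads per library and Cd163 on 23 to 111. In 3 day 7 libraries, control replicates 10 and 53 and DSS replicate 75, mitochondrially encoded transcripts took 9.96%, 12.2% and 14.2% of reads, against 0.479% to 4.04% in the other libraries. The day 7 values are therefore also given within both kinds of library. The tissue is labelled ovary, although the labelled extraction names retinas. The summed level of 8 retina genes was at most 1.28 FPKM in any library, and 7 of the 8 never reached 0.5 FPKM, while luteal, granulosa and oocyte genes were abundant. In whole tissue, fewer cells of a type and less RNA per cell cannot be told apart.

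Lyz2 had the highest level of the 10 genes in every library, and Cd68 the next highest except in control replicates 51 and 53 of day 7. Lyz2, which encodes the lysozyme of myeloid cells, made up 72.4% to 85.4% of the summed FPKM of the 10 genes in every library. At day 7, Lyz2 stood at 237, 174, 242 and 161 FPKM in DSS replicates 75, 80, 81 and 82, against 144, 123.1 and 140.2 FPKM in control replicates 10, 51 and 53. Lyz2 was at 304, 501, 326 and 268 FPKM at day 89 in DSS replicates R29, R38, R78 and R89, against 357, 306 and 186 FPKM in control replicates R123, R124 and R126. At day 7 the DSS libraries all lay above the controls, and at day 89 the groups overlapped. Lyz1, a closely similar neighbour of Lyz2 whose reads the counting could exchange with it, averaged 0.258 and 0.407 FPKM in DSS and control ovaries at day 7 and 0.490 and 0.225 FPKM at day 89.

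Cd68 encodes a heavily glycosylated membrane protein of the lysosomes of macrophages. In the same order of libraries, Cd68 stood at 15.2, 22.7, 18.4 and 20.4 FPKM in DSS ovaries at day 7, against 10.01, 2.19 and 6.28 FPKM in controls. Its day 89 levels were 56.0, 76.0, 33.0 and 34.1 FPKM in DSS ovaries, against 35.6, 14.7 and 16.4 FPKM in controls. All DSS libraries exceeded all controls at day 7, whereas control replicate R123 lay above DSS replicates R78 and R89 at day 89. The group means were ordered DSS day 89, control day 89, DSS day 7 and control day 7, and control day 7 was separated from its neighbour DSS day 7. The other neighbours overlapped. The same order held for Lyz2, Adgre1, Csf1r, Cd14 and Mertk.

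**Figure D1:**
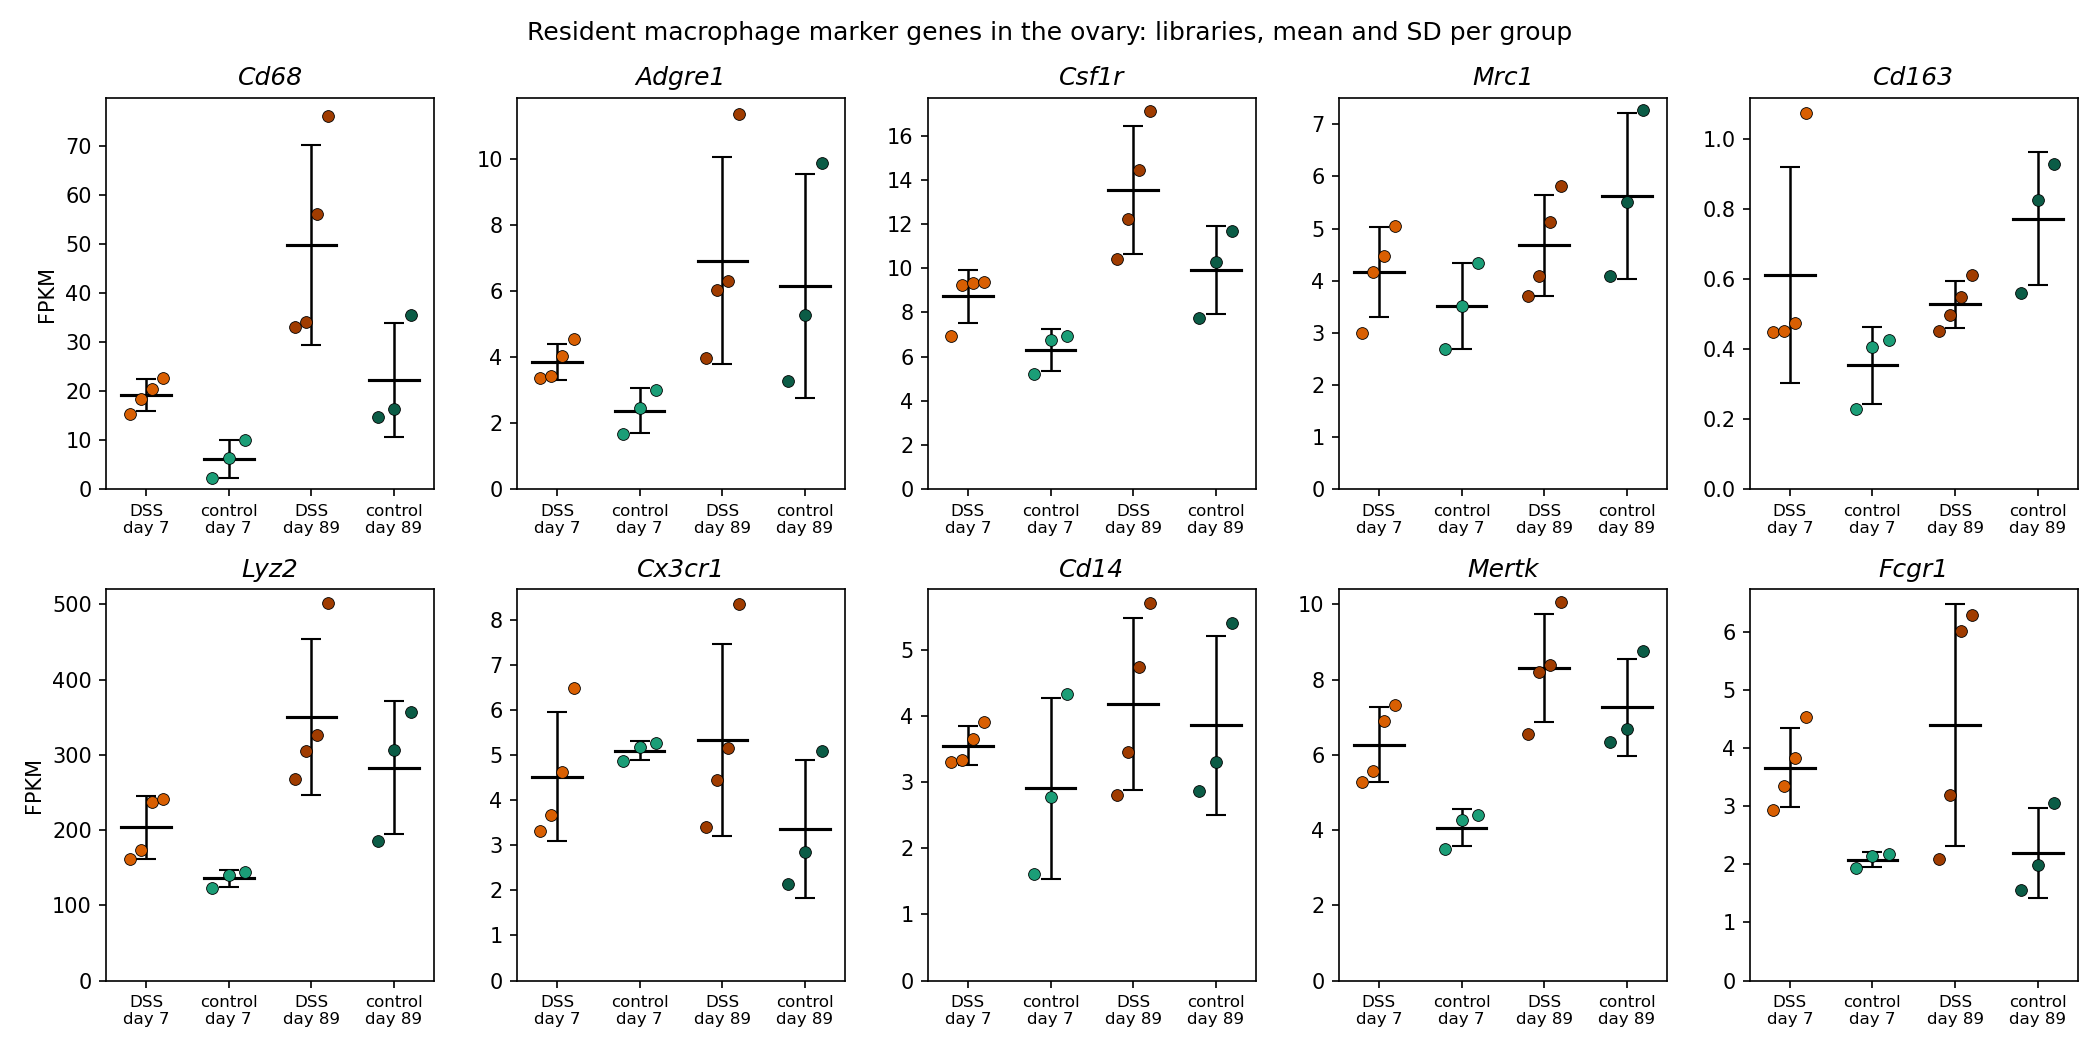
FPKM of each marker gene (vertical axis, linear and starting at 0, with its own scale per gene) in the 4 groups. Points are libraries, the wide bar is the mean and the whiskers are 1 SD. Cd68 and Lyz2 stand highest at day 89 and lowest in controls of day 7, while Cx3cr1 has its lowest mean in controls of day 89.

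Csf1r and Adgre1 encode surface receptors of the lineage. Csf1r, the receptor of colony stimulating factor 1, was at 9.40, 9.36, 9.26 and 6.92 FPKM in DSS ovaries at day 7, against 5.20, 6.77 and 6.95 FPKM in controls. By day 89 it stood at 17.1, 14.5, 12.2 and 10.4 FPKM in DSS ovaries, against 11.7, 10.3 and 7.75 FPKM in controls. DSS replicate 82 lay apart from the other DSS libraries of day 7 and just below control replicate 53. Adgre1, which encodes the F4/80 antigen of mouse macrophages, was at 4.03, 3.39, 4.57 and 3.44 FPKM in DSS ovaries at day 7, against 1.67, 2.46 and 3.01 FPKM in controls. The day 89 values were 11.4, 3.99, 6.05 and 6.31 FPKM in DSS ovaries, against 9.91, 5.30 and 3.28 FPKM in controls. The day 7 groups did not overlap for Adgre1, and a single library of each day 89 group, R29 and R123, held the highest values.

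Cx3cr1, the receptor of fractalkine, did not follow this order. It was at 6.49, 3.68, 4.63 and 3.31 FPKM in DSS ovaries at day 7, against 4.88, 5.27 and 5.18 FPKM in controls, whose 3 libraries lay within the DSS range. The day 89 libraries held 8.36, 5.17, 4.46 and 3.40 FPKM in DSS ovaries, against 5.09, 2.14 and 2.86 FPKM in controls. The deposited Cx3cr1 gene model spans 168264 bases and overlaps 9 other genes, 3 of them on the same strand (Gorasp1, Csrnp1 and Xirp1). Since the sources used here do not state how strands were counted, the origin of Cx3cr1 reads is uncertain. Csf1r, Mrc1, Mertk and Cd163 overlap 2, 1, 2 and 1 genes in the deposited positions, and the other 5 overlap none.

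Scavenger and clearance receptors differed among themselves. Mertk encodes a receptor tyrosine kinase for the engulfment of dying cells, bridged to them by the products of Gas6 and Pros1. Mertk was at 5.27, 5.58, 6.91 and 7.32 FPKM in DSS ovaries at day 7, against 4.41, 3.49 and 4.27 FPKM in controls, with no overlap. Its day 89 values were 6.55, 8.39, 8.20 and 10.1 FPKM in DSS ovaries, against 8.75, 6.35 and 6.69 FPKM in controls. Mrc1, the mannose receptor CD206, averaged 4.16 ± 0.863 FPKM in DSS ovaries (SD, n = 4) and 3.51 ± 0.826 FPKM in controls (n = 3) at day 7, and 4.68 ± 0.967 and 5.62 ± 1.60 FPKM at day 89. Its group ranges overlapped at both days, and the highest library was control replicate R123 at 7.27 FPKM. Cd163, the scavenger receptor for haemoglobin bound to haptoglobin, was the lowest of the 10 genes. Cd163 was at 0.449, 0.474, 1.07 and 0.452 FPKM in DSS ovaries at day 7, against 0.427, 0.228 and 0.407 FPKM in controls. The levels at day 89 were 0.453, 0.610, 0.549 and 0.497 FPKM in DSS ovaries, against 0.560, 0.826 and 0.928 FPKM in controls. DSS replicate 81 alone set the high day 7 mean.

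Of the sensing receptors, Fcgr1 encodes the high-affinity receptor for the constant part of IgG. Fcgr1 was at 3.35, 2.94, 4.53 and 3.83 FPKM in DSS ovaries at day 7, against 1.93, 2.17 and 2.13 FPKM in controls, with no overlap. By day 89 it was at 6.29, 6.01, 3.19 and 2.10 FPKM in DSS ovaries, against 3.06, 1.98 and 1.56 FPKM in controls, where R89 fell within the control range. Cd14, the co-receptor for bacterial lipopolysaccharide, averaged 3.55 ± 0.291 FPKM in DSS ovaries (SD, n = 4) and 2.91 ± 1.37 FPKM in controls (n = 3) at day 7. The control range of Cd14, 1.61 to 4.34 FPKM, enclosed all 4 DSS libraries. At day 89 Cd14 averaged 4.18 ± 1.3 and 3.86 ± 1.35 FPKM in DSS and control ovaries, again with overlap.

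DSS against control at day 7 was the first comparison, and asks whether macrophage transcripts of the ovary differ at the end of the colitis model. 9 of the 10 genes had a fold change above 0, and Cx3cr1 lay below it at a log2 fold change of −0.18. The largest was that of Cd68, which averaged 19.2 ± 3.17 FPKM in DSS ovaries (SD, n = 4) and 6.16 ± 3.91 FPKM in controls (n = 3). Its log2 fold change was 1.66 with an SE of 0.41. Fcgr1 followed at 0.59 (SE 0.27), Lyz2 at 0.56 (SE 0.26), Adgre1 at 0.54 (SE 0.31), Mertk at 0.52 (SE 0.16) and Csf1r at 0.41 (SE 0.18). Fold changes were taken between log2(FPKM + 1) values, so that those of low genes such as Cd163 are understated.

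None of the 10 genes passed an adjusted p of 0.05 with limma over all genes, and voom, a variant of limma for counts, called 0 of them on the recovered reads. Among all 18006 genes 0.0333% passed with limma, so a call of any gene was rare. The smallest adjusted p-values belonged to Cd68 (0.106) and Mertk (0.164), and those of the others were 0.289 or more. 5 genes, Cd68, Mertk, Csf1r, Fcgr1 and Lyz2, were higher with an unadjusted p under 0.05, against 8.46% of all genes. 6 genes had all DSS libraries above all controls (Cd68, Adgre1, Cd163, Lyz2, Mertk and Fcgr1), against 6.24% of all genes. For Cd163 the nearest libraries were DSS replicate 75 at 0.449 FPKM on 33 reads and control replicate 10 at 0.427 FPKM on 35 reads. The median log2 fold change of the 10 genes was 0.47 and that of all tested genes 0.00. The members were chosen with earlier results of these data known, so these counts describe them and test nothing.

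Cd68 was the gene nearest to a call at day 7, and its call turned on single libraries. It passed without DSS replicate 75 (log2 fold change 1.76, limma adjusted p = 0.035) and without the 3 libraries of high mitochondrial share (2.75, adjusted p = 0.0262). That setting leaves control replicate 51 as the only day 7 control, which is assumed to vary like the libraries of the other groups. Without control replicate 51, the library with 2.19 FPKM, it was 1.16 (adjusted p = 0.27). Within the libraries of high mitochondrial share, 1 DSS and 2 controls, Cd68 differed by 0.86, and within the others, 3 DSS and 1 control, by 2.75. The pairs of values in that order were 0.52 and 0.57 for Fcgr1, 0.74 and 0.62 for Lyz2, 0.62 and 0.46 for Adgre1, 0.23 and 0.75 for Mertk, 0.57 and 0.28 for Csf1r and 0.03 and 0.42 for Cd163. Mrc1 (0.34 and −0.07), Cx3cr1 (0.31 and −0.37) and Cd14 (0.45 and −0.21) differed in sign between both kinds of library.

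**Figure D2:**
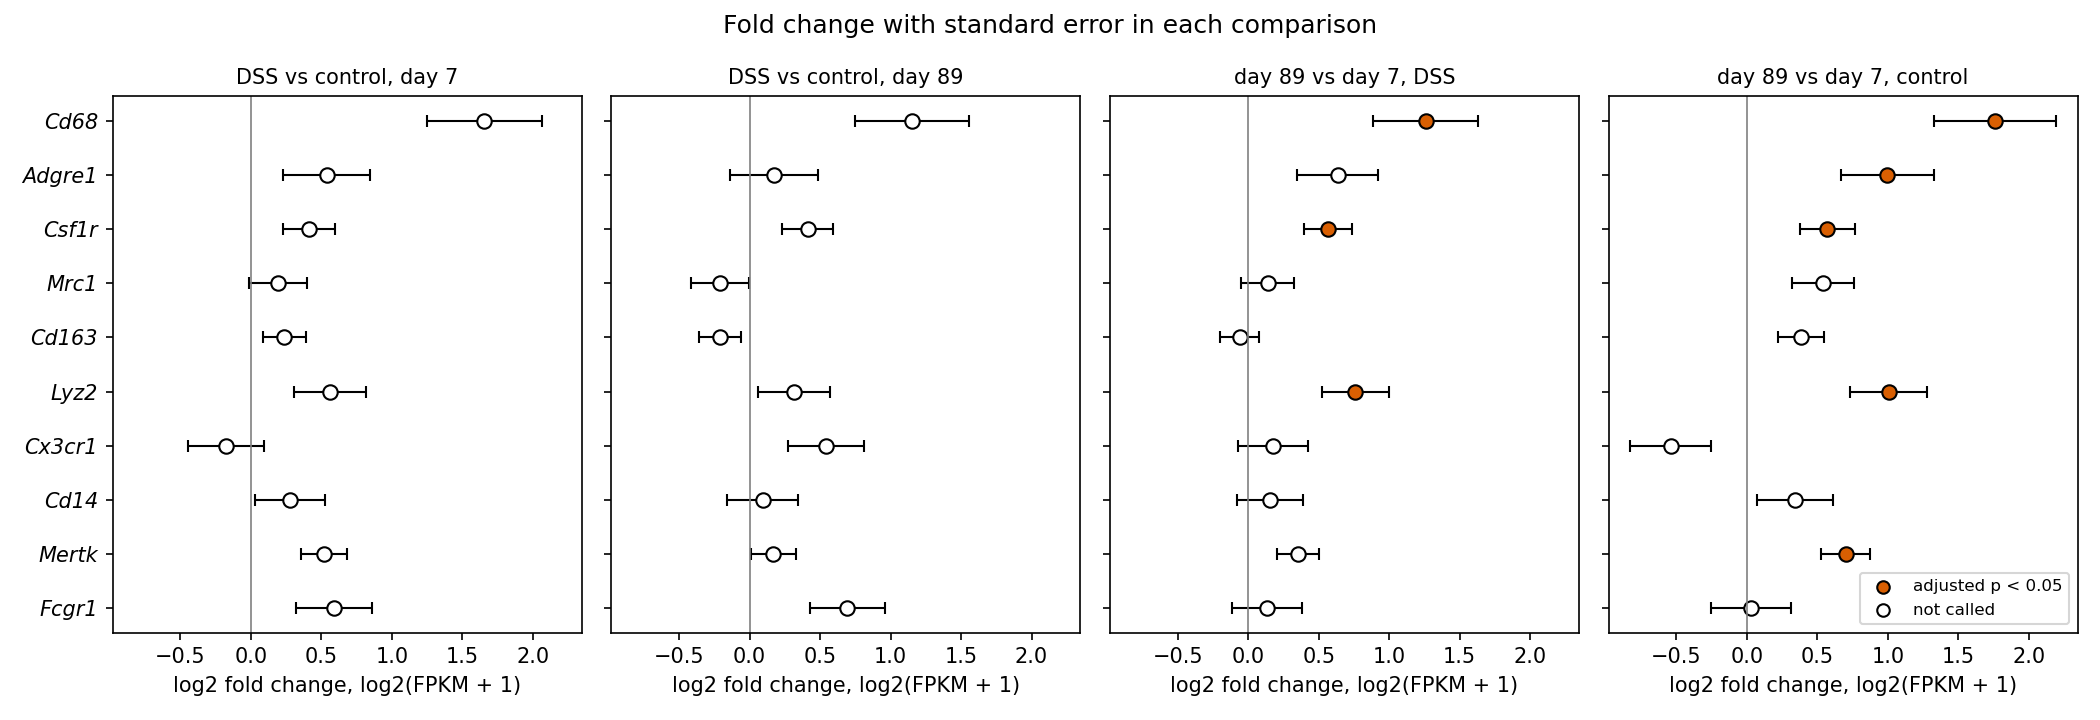
Log2 fold change of each gene on the log2(FPKM + 1) scale (horizontal axis) in the 4 comparisons, with the standard error from limma as whiskers. Filled points passed an adjusted p of 0.05 over all tested genes. No point is filled in either DSS comparison, and 3 and 5 are filled between the days in DSS and control ovaries.

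DSS against control at day 89 asks whether a difference is present after the rest. 8 of the 10 genes had a fold change above 0, while Mrc1 and Cd163 both lay at −0.21. Cd68 again had the largest value, averaging 49.8 ± 20.5 FPKM in DSS ovaries (SD, n = 4) and 22.2 ± 11.6 FPKM in controls (n = 3), for a log2 difference of 1.15 (SE 0.41). Fcgr1 averaged 4.40 ± 2.08 and 2.20 ± 0.775 FPKM in DSS and control ovaries (0.69, SE 0.27), Cx3cr1 5.35 ± 2.14 and 3.37 ± 1.54 FPKM (0.54, SE 0.27), and Csf1r 13.6 ± 2.89 and 9.91 ± 2.0 FPKM (0.41, SE 0.18). None of the 10 passed with limma, where every adjusted p was 0.924 or more, and voom called 0 as well. Over all genes 0.00555% passed.

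At day 89, 3 of the 10 genes, Cd68, Csf1r and Fcgr1, were higher in DSS ovaries with an unadjusted p under 0.05, against 2.37% of all genes. In 0 of the 10 genes did all DSS libraries exceed all controls, against 4.04% of all genes. The median log2 fold change of the 10 genes was 0.25 and that of all genes 0.00. Within the DSS group the libraries R29 and R38 stood highest for Cd68, Csf1r, Cx3cr1, Cd14 and Fcgr1. Among controls, R123 stood highest for Cd68, Adgre1, Csf1r, Lyz2, Cx3cr1, Mertk, Mrc1 and Fcgr1. Without R123 the median was 0.52. Without R29 the fold changes of Adgre1 and Cd14 were −0.06 and −0.04.

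The difference between the DSS effects of both days was tested directly. None of the 10 genes passed with limma or voom, 0 had an unadjusted p under 0.05, and 0.0% of all genes passed. The largest differences, day 89 minus day 7, were 0.72 (SE 0.38, adjusted p = 0.635) for Cx3cr1, −0.50 (SE 0.57, adjusted p = 0.812) for Cd68 and −0.45 (SE 0.21, adjusted p = 0.598) for Cd163. An adjusted p above the threshold does not show that the effects are alike at both days.

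Day 89 against day 7 gave the only calls. In DSS ovaries Cd68, Lyz2 and Csf1r rose, and the other 7 genes did not pass. Cd68 averaged 49.8 ± 20.5 FPKM at day 89 and 19.2 ± 3.17 FPKM at day 7 (SD, n = 4 each), where limma gave 1.26 on the log2 scale with an SE of 0.38 (adjusted p = 0.0308). Lyz2 averaged 349.8 ± 104 and 204 ± 42.0 FPKM at day 89 and day 7 (0.76, SE 0.24, adjusted p = 0.0374), and Csf1r 13.6 ± 2.89 and 8.73 ± 1.21 FPKM (0.57, SE 0.17, adjusted p = 0.0306). These 3 of 10 calls stand beside 10.7% of all genes called higher. The same 3 genes had all day 89 libraries above all day 7 libraries, against 12.2% of all genes. Adgre1 (0.64, adjusted p = 0.127) and Mertk (0.35, adjusted p = 0.107) missed the threshold, and Cd163 lay at −0.06. Leaving out R29 removed all 3 calls, and leaving out replicate 81, 82 or R78 left 1.

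In control ovaries 5 of the 10 genes rose, beside 16.1% of all genes called higher. Cd68 averaged 22.2 ± 11.6 FPKM at day 89 and 6.16 ± 3.91 FPKM at day 7 (SD, n = 3 each), where limma gave 1.76 on the log2 scale with an SE of 0.43 (adjusted p = 0.00841). Mertk averaged 7.26 ± 1.3 and 4.06 ± 0.493 FPKM at day 89 and day 7 (0.70, SE 0.17, adjusted p = 0.00863), and Lyz2 283 ± 88.0 and 136 ± 11.2 FPKM (1.00, SE 0.27, adjusted p = 0.0145). Adgre1 (1.00, SE 0.33, adjusted p = 0.0354) and Csf1r (0.57, SE 0.20, adjusted p = 0.0394) also passed. These 5 and Cd163 had all day 89 libraries above all day 7 libraries, against 22.8% of all genes. Mrc1 (0.54, adjusted p = 0.0738) and Cd163 (0.39, adjusted p = 0.0827) did not pass, and Cx3cr1 lay at −0.54 (adjusted p = 0.166). Without control replicate R123, 2 of the 10 genes were called, without replicate 10, 53 or R124 3, and without the 3 libraries of high mitochondrial share 2. The control comparison between days and the DSS comparison at day 7 share the 3 control libraries of day 7.

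The comparison between days carries the age of the mice and the handling of the libraries with it, which cannot be told apart. It also ran with gene length over the whole table. Genes of up to 1500 bases had a median log2 fold change of −0.19 in DSS and −0.31 in control ovaries between day 89 and day 7, and genes above 6000 bases 0.21 and 0.30. Cd68 and Lyz2, with deposited lengths of 1257 and 1316 bases, belong to the short class and rose, while Csf1r (5774 bases), Mertk (4336 bases) and Adgre1 (3238 bases) lie between. Luteal genes also stood higher at day 89: the summed FPKM of 6 of them was 3400 to 5813 in DSS and 4377 to 4842 in control ovaries at day 89, and 1950 to 3003 and 2402 to 3439 at day 7. Hsd3b1 was the largest part of that sum, averaging 3194 and 2737 FPKM in DSS and control ovaries at day 89. All 6 lay above 0 between the days in both, but 4 were called higher in DSS ovaries and 0 in controls. Oocyte genes ran the other way: their sum over 7 genes was 51.1 to 155 in DSS and 30.3 to 123.3 in control ovaries at day 89, and 253 to 408 and 111 to 221 at day 7. All 7 lay below 0 between the days in DSS ovaries (median −1.47) and in controls (median −0.67). In DSS ovaries all 7 were called lower, and in controls 2 were. Among all tested genes, 1935 were called lower in DSS ovaries and 2832 in controls. The part of luteal and oocyte tissue in the marker levels was not tested.

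Ratios within a library remove any factor shared by the genes of that library. Cd68 divided by Csf1r was 1.62, 2.43, 1.99 and 2.95 in DSS ovaries at day 7, against 1.92, 0.324 and 0.904 in controls. The day 89 ratio was 3.27, 5.25, 2.70 and 3.27 in DSS ovaries, against 3.04, 1.43 and 2.11 in controls. Cd68 thus varied more than Csf1r between libraries, and control replicate 51 had the lowest ratio. Lyz2 divided by Csf1r averaged 23.3 ± 3.38 and 22.03 ± 5.03 in DSS and control ovaries at day 7, and 26.2 ± 6.89 and 28.1 ± 3.59 at day 89 (SD, n = 4 and 3). Adgre1 divided by Csf1r averaged 0.445 ± 0.0636 and 0.372 ± 0.0574 at day 7, and 0.510 ± 0.171 and 0.595 ± 0.223 at day 89. The ranges of both ratios overlapped between all groups.

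**Figure D3:**
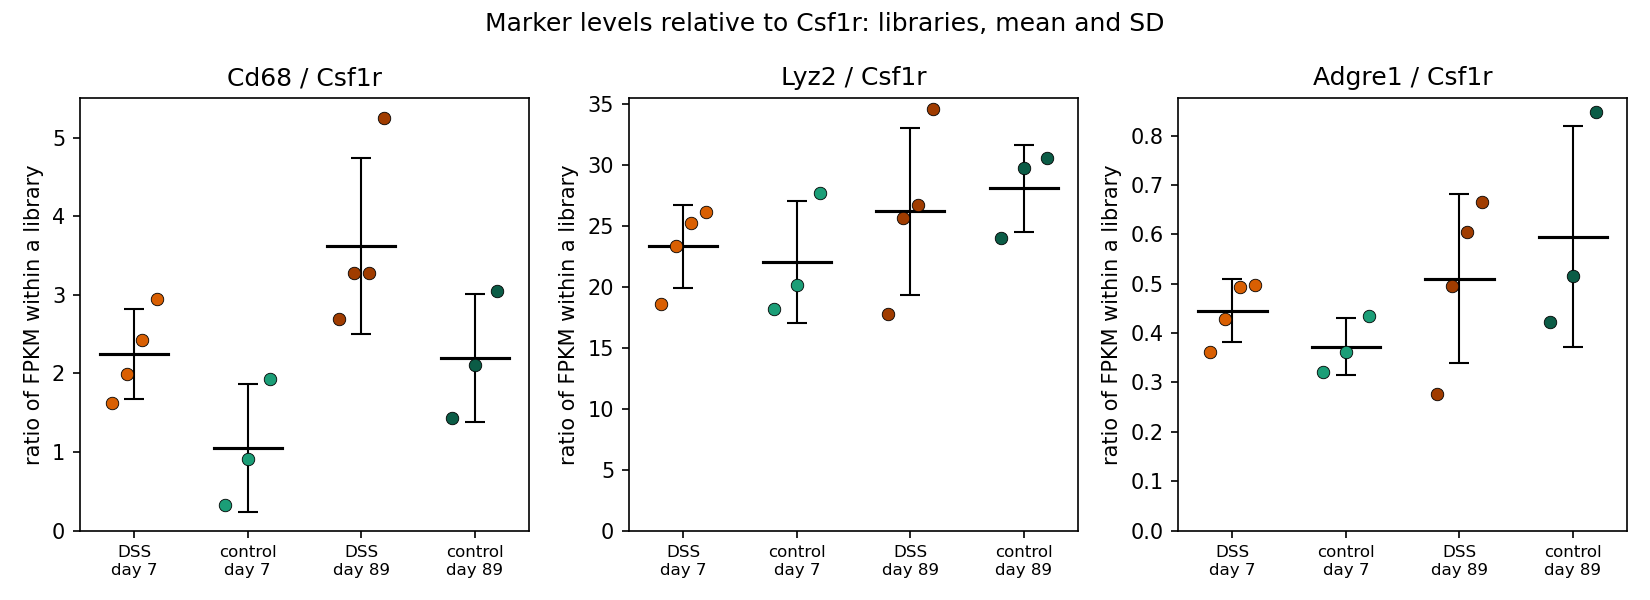
Ratio of FPKM to that of Csf1r within each library (vertical axis, linear and starting at 0) for Cd68, Lyz2 and Adgre1 in the 4 groups, with mean and SD. The ratio of Cd68 ranges from 0.324 in a day 7 control to 5.25 in a day 89 DSS library, while the Lyz2 and Adgre1 ratios overlap between all groups.

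Over the 14 libraries the markers varied together to different degrees. The Pearson correlation of each gene's log2(FPKM + 1) with the mean standardised level of the other 9 was 0.94 for Csf1r, 0.89 for Lyz2, 0.80 for Cd68 and 0.78 for Adgre1. It was 0.65 for Fcgr1, 0.64 for Mertk and 0.61 for Mrc1, and lower for Cd14 (0.47), Cd163 (0.25) and Cx3cr1 (0.09). These values describe 14 libraries that fall into 4 groups and share depth and composition within a library. Among tested genes outside the list, the most similar to the mean of all 10 were Igsf6 (0.93), Glipr1 (0.92), Dock2 (0.91), Mpeg1 (0.91), Cd48 (0.90), Tbxas1 (0.90), Cd5l (0.90) and Nfam1 (0.89). With group means removed their correlations were 0.63 to 0.77. Mpeg1 encodes the pore-forming perforin-2 of macrophages, and Cd5l a protein secreted by tissue macrophages. Mpeg1 averaged 20.5 ± 3.95 FPKM in DSS and 14.2 ± 2.20 FPKM in control ovaries at day 7, and 36.8 ± 12.96 and 28.6 ± 9.41 FPKM at day 89. Single genes most like 1 marker were Abhd12 for Cd68 (0.96), Dock2 for Csf1r (0.94), Cd84 for Lyz2 (0.95), Mpeg1 for Adgre1 (0.94), Ly86 for Fcgr1 (0.92) and Pianp for Mertk (0.96). For the others they were Junb for Cd14 (0.89), Zfp974 for Mrc1 (0.88), Apoo-ps for Cd163 (0.85) and Cebpe for Cx3cr1 (0.83). With group means removed, these single-gene correlations ran from 0.76 for Cx3cr1 to 0.95 for Mertk. Each is the highest over all tested genes outside the list in only 14 libraries. Unrelated genes can also reach high values in such a search, and this was not tested.

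**Figure D4:**
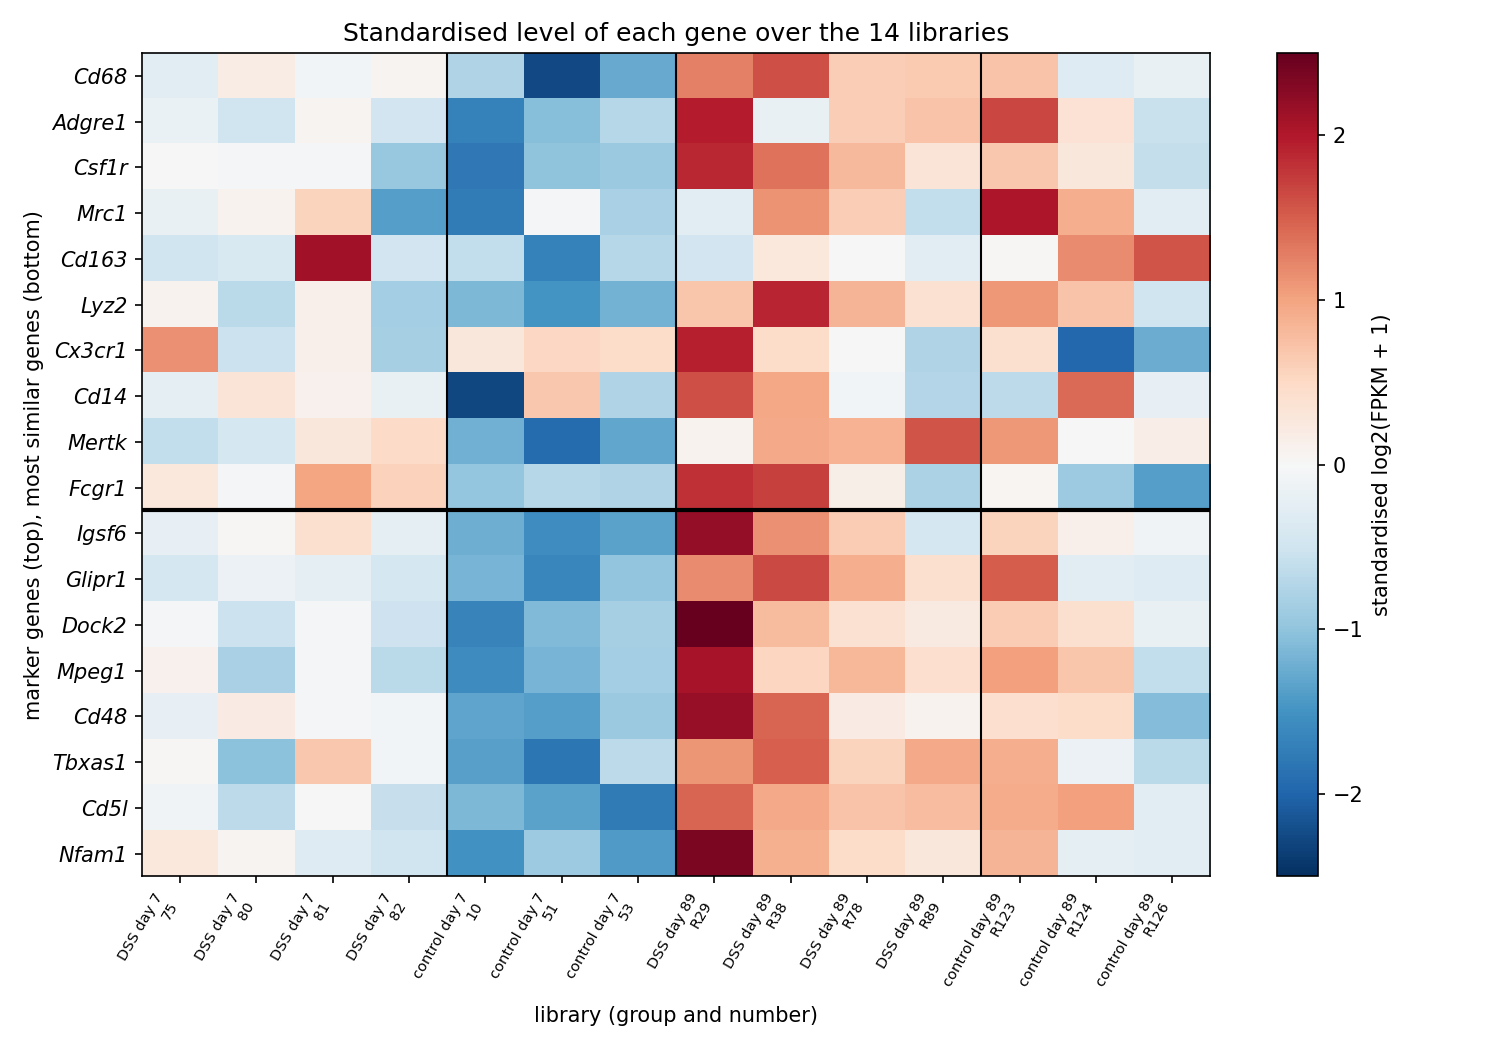
Level of each marker (above the thick line) and of the 8 most similar genes (below it) in the 14 libraries (columns, grouped), as log2(FPKM + 1) standardised over libraries. Red is above and blue below a gene's own mean. The 3 controls of day 7 are blue for most genes, and DSS replicates R29 and R38 of day 89 are mostly red. Cx3cr1 departs in all 3 of these controls and Cd14 in control replicate 51, which are red. Cd163 and Mrc1 are blue in R29, and Adgre1 is blue in R38.

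Genes that act with the markers were counted from lists. At day 7 no gene of these lists passed with limma in DSS against control ovaries. All 3 C1q genes, whose products are made largely by macrophages, lay above 0: C1qb averaged 100.2 ± 20.2 FPKM in DSS and 38.2 ± 12.2 FPKM in control ovaries (log2 fold change 1.40, limma adjusted p = 0.106). All 5 genes of a list of Fc gamma receptors and signalling adaptors lay above 0 with a median of 1.03. Among them the inhibitory receptor Fcgr2b averaged 7.12 ± 1.86 and 2.98 ± 0.653 FPKM (1.01, adjusted p = 0.0816) and the signalling adaptor Tyrobp 39.2 ± 6.22 and 18.04 ± 2.5 FPKM (1.08, adjusted p = 0.173). All 5 genes listed beside Cd14 for the sensing of microbial products lay above 0 with a median of 0.37, led by Tlr2 (0.79) and Ly86 (0.70). All 8 genes of the clearance of dying cells lay above 0 with a median of 0.31, whereas of 10 lysosomal genes 7 did, with a median of 0.05. Of 7 tested further resident markers 5 lay above 0 (median 0.18).

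The regulators and ligands showed no such common direction. Spi1 averaged 7.01 ± 0.894 FPKM in DSS and 4.17 ± 0.494 FPKM in control ovaries at day 7 (0.63, adjusted p = 0.407), with no overlap, but of the 6 lineage transcription factors only Spi1 and Irf8 lay above 0. Of the 6 tested ligands and growth factors 4 lay above 0 (median 0.21), among them Csf1 (0.32) and the Cx3cr1 ligand Cx3cl1 (0.45), while Gas6 lay at −0.53. Csf2, a growth factor of myeloid cells, was listed at 0 in every library. At day 89, Spi1 averaged 10.1 ± 6.90 and 4.77 ± 1.70 FPKM (0.79, adjusted p = 0.924).

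**Figure D5:**
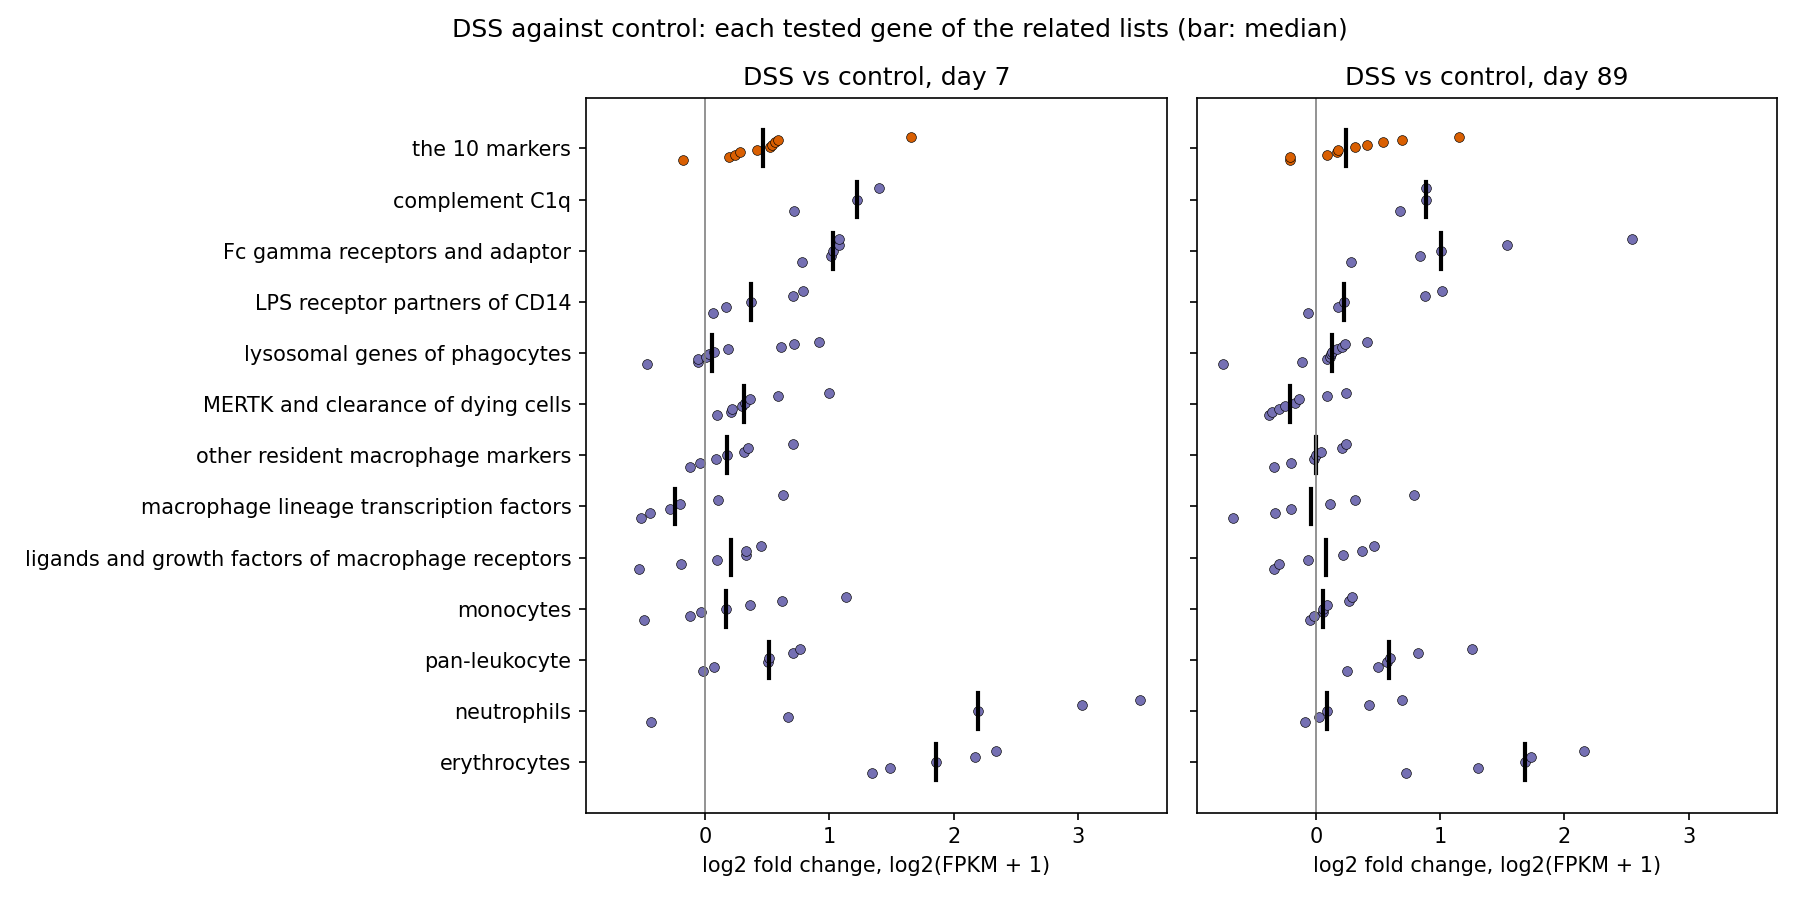
Log2 fold change of DSS against control (horizontal axis) for the 10 markers and for each tested gene of 12 related lists, at day 7 and day 89. Each point is a gene and each bar a list's median. Genes of C1q and of the list of Fc gamma receptors and signalling adaptors all lie above 0 at both days. Clearance genes lie mostly below 0 at day 89. The neutrophil genes S100a8 and S100a9 lie above 3 at day 7, but S100a8 reached the filter through day 7 DSS libraries alone.

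At day 89 no gene of these lists passed either. All 3 C1q genes (median 0.88) and all 5 genes of the list of Fc gamma receptors and signalling adaptors (median 1.00) lay above 0. Fcgr4, an activating IgG receptor, averaged 59.4 ± 95.3 FPKM in DSS and 3.34 ± 2.19 FPKM in control ovaries (2.55, limma adjusted p = 0.924), and R29 alone stood at 202 FPKM. Of the 8 clearance genes 2 lay above 0 (median −0.21), and Axl, a receptor related to Mertk, averaged 81.1 ± 6.53 and 106 ± 5.90 FPKM (−0.38). Between day 89 and day 7, Siglec1, Stab1 and Gas7 of the 7 tested further resident markers were called higher in DSS and in control ovaries. Of 10 lysosomal genes 5 were called higher in each, among them Lamp1, Lamp2, Ctsb and Ctss, and 1 was called lower in controls. Over all genes 10.7% were called higher in DSS and 16.1% in control ovaries. Siglec1, a sialic acid receptor of macrophages, averaged 2.71 ± 0.413 FPKM at day 89 and 0.858 ± 0.155 FPKM at day 7 in DSS ovaries (0.99, limma adjusted p = 0.0015).

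Markers of other cells were set beside the day 7 comparison, and none of the genes listed for them passed with limma. Of 5 tested neutrophil genes 4 lay above 0, but S100a8 and Retnlg reached the filter through day 7 DSS libraries alone. The summed FPKM of all 10 listed neutrophil genes was 13.2 to 133 in DSS and 1.81 to 3.68 in control ovaries. Red blood cell genes all lay above 0, 5 of 5 tested, with a sum over 7 listed of 410 to 726 in DSS and 49.9 to 310 in control ovaries. Monocyte genes lay above 0 in 4 of 7 tested, with a sum over 8 listed of 33.5 to 45.4 and 21.3 to 71.0. The wide control range of that sum includes Nr4a1, which ran from 6.37 to 18.1 FPKM in DSS and from 6.83 to 56.9 FPKM in control ovaries. Among the monocyte genes Chil3, which also needed those DSS libraries to reach the filter, averaged 1.70 ± 1.16 FPKM in DSS and 0.144 ± 0.0284 FPKM in control ovaries (1.13, limma adjusted p = 0.0975), with no overlap. Plac8 averaged 18.7 ± 2.29 and 12.1 ± 3.74 FPKM (0.62, adjusted p = 0.385). Of the defining monocyte receptors and surface antigens, Ccr2 averaged 1.04 ± 0.302 FPKM in DSS and 1.204 ± 0.0891 FPKM in control ovaries, and Ly6c2 0.0879 ± 0.0667 and 0.113 ± 0.0636 FPKM. Ly6c2 was at most 0.154 and 0.183 FPKM in these groups, and it reached the filter through day 89 DSS libraries alone. Pan-leukocyte genes lay above 0 in 5 of 6 (median 0.51), with a sum of 42.9 to 63.9 in DSS and 35.2 to 41.5 in control ovaries. At day 89 all 6 lay above 0 (median 0.59), with a sum of 45.95 to 162 and 27.9 to 54.7. At day 7 the summed FPKM of 5 lymphatic endothelial genes was 184 to 222 in DSS and 112 to 174 in control ovaries. Most of that sum was Ccl21a, at 160 ± 21.0 and 111 ± 26.7 FPKM. Of these 5 genes 4 lay above 0, and 0 had an unadjusted p under 0.05 with limma. The sum of 8 B and plasma cell genes was 17.5 to 27.99 in DSS and 10.07 to 16.0 in control ovaries. At day 89 that sum was 20.2 to 56.4 and 8.58 to 9.92, and none of the 5 tested genes passed with limma. All 7 oocyte genes lay above 0 at day 7 (median 0.87), as did 6 of 6 tested T and NK cell genes (median 0.13). Other lists leaned the other way. Above 0 lay 1 of 6 endothelial (median −0.43), 2 of 6 luteal (−1.02) and 2 of 5 smooth muscle genes (−0.57). The same held for 2 of 5 tested dendritic (−0.03) and 0 of 3 tested mast cell genes (−0.13). Granulosa genes lay above 0 in 3 of 6 (−0.05) and theca and interstitial genes in 2 of 5 (−0.18). None of these listed genes was at 0 in every library. The part of these cells in the levels of Lyz2, Cd14, Fcgr1 and the other markers was not tested.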

How the data were processed

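The authors deposited FPKM values for each gene and library, with a gene length, in 1 table for 14 libraries. Every value column could be tied to a labelled library. HISAT2 2.0.5 and build GRCm38 are named per the submitters' processing notes. The sources used here do not state the counting tool, the annotation or the use of strand. Multiplied by gene length, the values of a library were whole multiples of the same quantity (tolerance 0.01, 100% of values below 300 multiples), which gave the reads behind each value. Replicates differed by more than sampling noise. The design named a count test in case counts were deposited; because the unit was FPKM, limma 3.58.1 (R 4.3.3) was applied to log2(FPKM + 1), a log2 scale computed here from the deposited FPKM. Genes with an FPKM of at least 0.5 in at least 3 libraries were tested (18006). The model had a mean for each of the 4 groups and a prior variance that follows the mean level (limma-trend). Benjamini-Hochberg adjustment ran over all tested genes, with a threshold of 0.05. The procedure was tested on simulated data.

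The members and lists were chosen with earlier results of these data known. All 10 members are named. Of each list, at most the 3 tested genes with the smallest p in either DSS comparison, and genes past the threshold, are named. Csf2, Lyz1 and Nr4a1 were added after their values were seen. A lysosomal gene that the rule names is not reported here. Similar genes are the 8 with the highest Pearson correlation with the members' mean, and the highest for each member. Promoter windows came from RefSeq (GRCm38.p6); 3 members have no window here. The alternatives were a pseudocount of 0.1, no filter, a mean FPKM of at least 1, only the libraries compared, upper quartile and median ratio scaling, voom on recovered reads, the 3 libraries of high mitochondrial share left out or given a term, and each library left out in turn.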

Additional observations from a re-analysis of the deposited data

Results flagged for a closer look

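Csf1r in DSS replicate 82 of day 7 stood at 6.92 FPKM, apart from the other 3 libraries of its group, which lay at 9.26 to 9.40 FPKM. Cd163 in DSS replicate 81 of day 7 stood at 1.07 FPKM, apart from the other 3, which lay at 0.449 to 0.474 FPKM. In both, the gap to the nearest library was a larger share of the group's range than Dixon's test allows at its 95% level, which chance passes in about 5% of groups. The members gave 20 groups of 4 libraries, of which these 2 passed.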

How the results depend on the processing

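No paired analysis was possible because each library number occurs in a single group. Of 1135 recomputed fold changes of the members, 1057 kept their direction and side of the threshold, 39 lost a call, 7 gained one and 32 changed sign, and none of these 32 was of a fold change that was itself called. The cause of these changes was not tested. In DSS against control at day 7, 1 member was called without the 3 libraries of high mitochondrial share, where Mrc1 was −0.069 and Cd14 −0.21, and 0 to 1 with each library left out. At day 89 the median over the members was 0.081 to 0.52 with each library left out, Adgre1 −0.14 to 0.53 and Cd14 −0.055 to 0.31. Between days in DSS ovaries 0 members were called with no filter, and 0 to 3 with each library left out, where Cd163 was −0.11 to 0.066, Cx3cr1 −0.030 to 0.33 and Fcgr1 −0.040 to 0.37. Between days in control ovaries 3 members were called with no filter, with only the libraries compared and with a term for the 3 libraries, and 2 without them. There Fcgr1 was −0.033 with the term and −0.015 without those libraries, Cd14 −0.17 without them, and the median 0.84 with voom. With each library left out 2 to 6 were called and Fcgr1 was −0.16 to 0.18. For the difference of the DSS effects, Csf1r was 0.028 with upper quartile scaling, 0.0067 with median ratio scaling and 0.13 without the 3 libraries, where Cd14 was 0.30. With each library left out Csf1r was −0.15 to 0.12, Cd14 −0.44 to 0.074 and Fcgr1 −0.070 to 0.34. The count of all genes called at day 7 was 6 and ran from 0 to 1221 with each library left out, was 915 without the 3 libraries and 20 with a term for them, 2 with a pseudocount of 0.1 or a mean FPKM of at least 1, and 0 with voom or only the libraries compared. At day 89 it was 1 and ran from 0 to 5 over the other settings. Between days it was 3860 in DSS ovaries, or 2034 to 4930 with each library left out, and 5732 in controls, or 3231 without the 3 libraries, 3141 with a term for them and 3695 at the lowest with a library left out. For the difference it was 0, or up to 41. Cd163, at 23 to 111 reads per library, is the member most limited by depth.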
